A study of Rattus norvegicus with 44 samples.

Results

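The genes described here act in the rough endoplasmic reticulum (ER) on proteins that enter the secretory pathway: they target nascent chains to the membrane, move them through it, trim the signal peptide, attach N-glycans and fold the product. The set was defined by 40 gene symbols, and a gene was taken as measured where a probe set of the Affymetrix Rat Gene 1.0 ST array carried that symbol alone. Of the 40 genes, 36 were measured, among 14324 genes with a single symbol and 27342 probe sets in all. They had 39 probe sets, since Srp72 had 3 and Selenok had 2, and each gene is given by its brightest probe set. Srpr, Spcs2, Spcs3 and Stt3b were not carried as a single symbol and were not analysed here. The current RefSeq symbol of Srpr is Srpra, which had a probe set of its own that was not counted as a member.

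RNA came from whole ovaries of 4-day-old female Sprague-Dawley rats that were kept in culture for 48 hours, and the question was which transcripts a growth factor changes in the ovary around the primordial follicle stage. Each of 8 factors was added alone at 50 ng/ml, with 3 arrays per factor: AMH, BMP4 and FGF7 of human sequence, KITLG of mouse sequence, and FGF2, GDNF, LIF and PDGF-AB of rat sequence. The reference was 14 arrays of ovaries cultured with no added factor. Human CTGF at 50 ng/ml was tested in a second set of 3 arrays with 3 untreated arrays of its own. A sample held the 2 to 3 ovaries of 1 culture well, taken from different pups of a litter, so that each value averages over oocytes, pregranulosa cells, stroma and surface epithelium. In such whole-organ RNA, fewer cells of a type cannot be told apart from less transcript per cell. The paper reports that control and treated ovaries did not differ in morphology after this time. On that ground it takes expression differences as changes in transcription and not in the proportions of cell types.

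As background, a signal peptide that leaves the ribosome is bound by the signal recognition particle (SRP), whose receptor docks the ribosome on the ER membrane at the Sec61 channel. Signal peptidase then removes the signal peptide, and the oligosaccharyltransferase transfers a preassembled glycan from dolichol to asparagine residues of the chain. Lectin chaperones, the Hsp70 protein BiP and protein disulphide isomerases fold the product, and many of their genes are induced together when unfolded protein accumulates. Oocytes use this route for the zona pellucida glycoproteins and secreted ligands, and somatic cells of the ovary use it for matrix and receptors.

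All levels are log2 intensities, so that a difference of 1 is a doubling of intensity. The arrays resembled each other closely, with array medians of 5.93 to 6.01 over the 38 arrays of the first set and no correlation between any pair under 0.964. The 36 genes were bright: the lowest averaged 7.00, against a median of 5.98 over all probe sets. Of 10 listed oocyte markers 7 were measured, and their summed intensity was between 3188 and 7593 in the controls. The scale has no zero, so that no marker can be called absent. 4 arrays had the lowest oocyte sums of the 38: FGF2 replicate 1 (2217), Control replicate 1 (3188), KITLG replicate 1 (3959) and LIF replicate 1 (4002). Over all other probe sets Control replicate 1 was most like FGF2 replicate 1 (r = 0.664), and KITLG replicate 1 and LIF replicate 1 were most like each other (r = 0.725). A similar likeness across groups tied Control replicate 2 to AMH replicate 1 (r = 0.754), Control replicate 12 to GDNF replicate 1 (r = 0.745) and Control replicate 14 to GDNF replicate 3 (r = 0.696). Here r is the correlation of deviations from the mean of all arrays, given as a description. Controls and 1 to 3 treatments were cultured on any day, but the day of an array is not in the labels. With these labels, day and treatment therefore cannot be told apart here. The paper reports that its network analysis corrected for possible effects of culture, RNA processing and array dates, and that this had no major effect.

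Few of the 36 genes passed the threshold, and those that did were moderate changes of single subunits rather than of whole complexes. In a limma fit of all 38 arrays with Benjamini-Hochberg adjustment over the 27342 probe sets at 0.05, 5 genes passed with BMP4 (13.9% of 36, against 0.274% of all probe sets), 3 with FGF2 (8.33%, against 0.94%), and 1 each with FGF7 (2.78%, against 0.0805%), KITLG (2.78%, against 0.0439%) and PDGF-AB (2.78%, against 0.234%). None passed with AMH, where 0% of all probe sets did, with GDNF (1.89% of all) or with LIF (0.267% of all). At an unadjusted p under 0.05 there were 5 genes with AMH (against 5.08% of probe sets), 7 with GDNF (17.1%), 8 with LIF (7.25%), 9 with FGF7 (7.57%), 11 with KITLG (8.66%), 13 with BMP4 (8.97%), 14 with PDGF-AB (9.79%) and 15 with FGF2 (12.2%). The 11 gene and factor pairs that passed involved 6 genes: Srp9, Sec11c, Selenok and Pdia6 were lower, and Alg3 and Ddost were higher. The genes were chosen with earlier results of these data known, among them the falls of Srp9 and Sec11c and the rise of Alg3 with BMP4. The members' shares beside those of all probe sets therefore describe these genes and do not test for an excess. The 36 genes are brighter than most, so the shares are also given among the 10553 probe sets at least as bright as the lowest of them. There 0.578% passed with BMP4, 1.61% with FGF2, 0.199% with FGF7, 0.692% with GDNF, 0.0948% with KITLG, 0.322% with LIF, 0.445% with PDGF-AB and 0% with AMH. At an unadjusted p under 0.05 the members' shares were 13.9% with AMH (against 5.22% of these brighter probe sets), 19.4% with GDNF (12.7%), 22.2% with LIF (10%), 25% with FGF7 (12.3%), 30.6% with KITLG (13.2%), 36.1% with BMP4 (12.9%), 38.9% with PDGF-AB (14.4%) and 41.7% with FGF2 (17.8%).

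These calls rest on a spread estimated over all groups. When each factor's 3 arrays and the 14 controls were fitted alone, 0 of the 11 pairs passed, with adjusted p between 0.105 and 0.37, and the methods' t-test on the same values, after Benjamini-Hochberg adjustment, also passed 0 of 11. No pair kept its call in all 3 fits that left out 1 of its treated arrays. Sec11c with FGF2 kept it in 2, and Ddost with FGF2, Alg3 with FGF2 and Sec11c with FGF7 in 1 each. The other pairs kept it in none of these fits, while 8 of the 11 passed whichever control was left out. The 8 factors share the same 14 controls, so that a control that lies high or low moves all 8 differences at once. Where nothing in the labels ties samples to separate cultures, p-values measure only the spread between these samples.

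**Figure D1:**
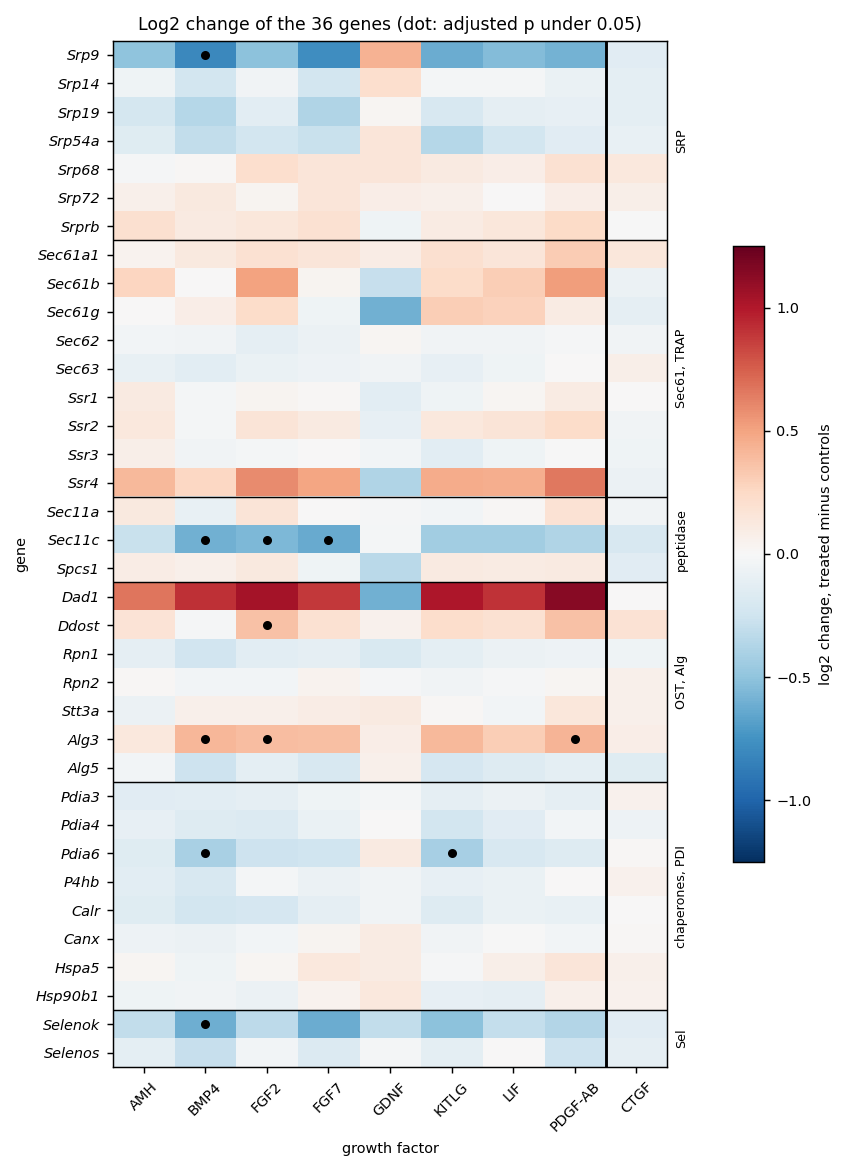
Log2 change (treated minus controls) of the 36 genes, in rows by role, with each of 8 growth factors and, right of the heavy line, with CTGF against its own controls. Dots mark the 11 pairs with an adjusted p under 0.05. Dad1 is the deepest red row in 7 factors and is blue with GDNF, without a dot in any column.

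The median log2 change of the 36 genes lay between -0.05 (BMP4) and 0.01 (PDGF-AB), close to the medians of all probe sets, which lay between -0.03 (LIF) and 0.04 (GDNF). Across the 8 factors, 22 of the 36 genes stayed within 0.3 of the controls on the log2 scale in every comparison. 12 genes had no unadjusted p under 0.05 with any of the 8: Srp14, Srp72, Sec62, Sec63, Ssr1, Ssr3, Rpn2, Stt3a, Pdia3, Canx, Hspa5 and Hsp90b1. The spread among the 14 controls was 0.168 for the median gene of the set, against 0.197 for the median probe set.

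Among the 7 measured SRP genes, Srp9 varied most. Srp9 (probe set 10766378) and Srp14 together form the part of the particle that slows translation until docking. Srp9 measured 7.46, 7.50 and 7.48 with BMP4, against controls between 7.71 and 8.98 (median 8.13). All 3 BMP4 arrays were below every control, as was true of 0.625% of all probe sets, and the mean was 0.571 of the control intensity (log2 change -0.81 ± 0.18, SE, adjusted p = 0.0339, exact two-sided permutation p = 0.00441 over 680 splits). Without the 4 arrays of low oocyte marker sum, a set chosen after the data were seen, the adjusted p was 0.0506 and the log2 change -0.80. That set holds replicate 1 of FGF2, KITLG, LIF and the controls, and no BMP4 array. With FGF7 the arrays read 7.52, 7.52 and 7.51, also below every control, and the difference of -0.77 did not pass (adjusted p = 0.0697). GDNF was the exception in direction, with 8.70, 8.77 and 8.68, inside the upper range of the controls (log2 change 0.43, adjusted p = 0.2). Controls 12, 13 and 14, each most like a GDNF array over all other probe sets, read 8.58, 8.84 and 8.68 for Srp9, close to GDNF. Without these 3 controls the GDNF difference of Srp9 was 0.54 and passed (adjusted p = 0.0276), as did 11.5% of all probe sets. Leaving out controls that read close to GDNF widens the difference by itself, so this pass is no separate support. Srp9 read 7.73, 7.76 and 7.85 with AMH, 7.77, 7.87 and 7.68 with FGF2, and 7.93, 7.36 and 7.70 with KITLG, for log2 changes of -0.51, -0.51 and -0.62. It read 7.78, 7.60 and 7.85 with LIF and 7.47, 7.84 and 7.78 with PDGF-AB, for log2 changes of -0.55 and -0.59. These 5 factors reached the lower controls and did not pass (adjusted p between 0.147 for PDGF-AB and 0.859 for AMH).

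The controls themselves were not uniform for Srp9. Controls 3, 10, 12, 13 and 14 lay between 8.58 and 8.98 and the other 9 between 7.71 and 8.35, so that the BMP4 and FGF7 arrays were closest to the lower controls. The other SRP genes differed less. Srp14, the partner of Srp9, measured 7.77, 7.75 and 7.77 with GDNF, against controls of 7.19 to 7.93 (log2 change 0.21, adjusted p = 0.388). Srp54a, the GTPase that binds the signal peptide, measured 9.76, 9.91 and 9.99 with KITLG, against controls of 9.98 to 10.56 (log2 change -0.36, adjusted p = 0.12). Srp19, which helps assemble the particle on its RNA, was below every control in all 3 FGF7 arrays (6.84, 6.66 and 6.71, against a lowest control of 6.85), a pattern shown by 0.6% of probe sets, and did not pass (adjusted p = 0.338, log2 change -0.38). Srp68 and Srp72, which bind each other on the particle's RNA, differed from the controls by at most 0.21 and 0.15, and Srprb, the membrane-anchored receptor subunit, by at most 0.24.

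**Figure D2:**
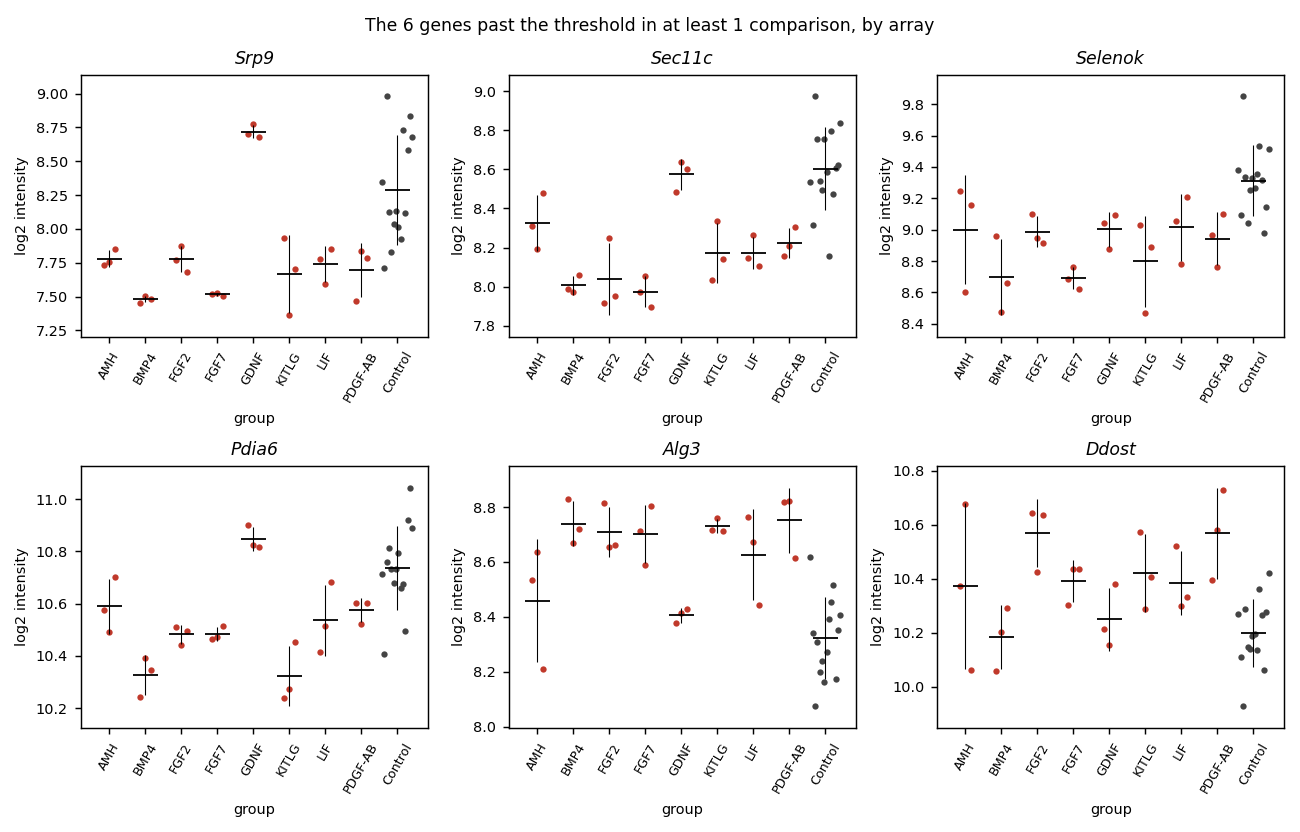
Log2 intensity of the 6 genes past the threshold in at least 1 comparison, 1 point per array, with the 8 factors (n = 3 each, red) left of the 14 controls (grey). Bars are means and lines ± 1 SD. Srp9 with GDNF, at 8.68 to 8.77, stands apart from the other 7 factors, whose arrays lie between 7.36 and 7.93.

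Of the 9 genes of the Sec61 channel and the associated TRAP complex, none passed with any factor. Sec61a1, which forms the pore, was nearest to the threshold: 10.85, 10.83 and 10.91 with PDGF-AB, against controls of 10.37 to 10.73, all 3 above every control (as in 0.618% of probe sets), with a log2 change of 0.32 ± 0.08 (SE, adjusted p = 0.0538, exact permutation p = 0.00147). The 3 FGF2 arrays, at 10.73, 10.75 and 10.74, were also above every control (0.699% of probe sets), with a log2 change of 0.20 (adjusted p = 0.249). KITLG arrays read 10.70, 10.76 and 10.78 and LIF arrays 10.67, 10.80 and 10.63. FGF7 gave 10.70, 10.66 and 10.72, BMP4 gave 10.55, 10.76 and 10.71, and GDNF gave 10.62, 10.60 and 10.69, all within or just above the control range. AMH was the most scattered, at 10.60, 10.81 and 10.36. All 8 factors gave Sec61a1 a mean above the control mean, by 0.05 to 0.32.

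The small channel subunits and TRAP genes spread more widely among controls. Sec61b measured 9.40, 9.13 and 9.48 with PDGF-AB (log2 change 0.53, adjusted p = 0.348) and 8.40, 8.49 and 8.67 with GDNF (log2 change -0.29, adjusted p = 0.509), against controls of 8.32 to 9.65. FGF2 gave 9.55, 9.20 and 9.18 (log2 change 0.50, adjusted p = 0.297), AMH 9.42, 9.08 and 8.72, LIF 9.44, 8.95 and 8.97, and KITLG 9.29, 8.61 and 9.21. BMP4 (8.94, 8.75 and 8.76) and FGF7 (8.97, 8.78 and 8.80) were nearest to the control mean of Sec61b, and every factor's arrays overlapped the controls. Sec61g was at 8.53, 8.32 and 8.18 with GDNF, against controls of 8.39 to 9.75 (log2 change -0.60, adjusted p = 0.146). Without controls 12, 13 and 14, which read 8.54, 8.46 and 8.39, the Sec61g difference was -0.73 and passed (adjusted p = 0.0198). These controls read close to GDNF, so leaving them out widens the difference by itself. In that fit 4 of the 36 genes passed with GDNF (Sec61g, Srp9, Spcs1 and Rpn1), a share no higher than the 11.5% of all probe sets. The highest Sec61g values were 9.84 in FGF2 replicate 1, 9.75 in Control replicate 1, 9.71 in LIF replicate 1 and 9.58 in KITLG replicate 1. These are the 4 arrays with the lowest oocyte marker sums. The part of cell composition in these values was not tested. Ssr4, the TRAP delta subunit, averaged between 9.73 (BMP4) and 10.12 (PDGF-AB) in 7 factors and 9.09 with GDNF, against 9.46 ± 0.34 in controls (SD, n = 14), and its lowest adjusted p was 0.0784 with PDGF-AB. With array quality weights Ssr4 passed with FGF7 (adjusted p = 0.0127) and PDGF-AB (0.00361), and not with AMH (0.574) or BMP4 (0.224). Sec61b passed with PDGF-AB under these weights (0.0374) and with GDNF in the replicate block (0.0421). Ssr4 read 10.14, 10.06 and 10.15 with PDGF-AB, 9.95, 9.97 and 9.95 with FGF7, and 10.18, 9.79 and 9.79 with LIF. It read 10.08, 10.12 and 9.41 with AMH and 10.19, 9.56 and 10.02 with KITLG, so that 1 array of each lay well under the other two. Ssr1, Ssr2 and Ssr3, the other TRAP subunits, differed by at most 0.23, and Sec62 and Sec63, which serve proteins that enter after translation, by at most 0.13.

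In the signal peptidase, the 2 catalytic subunits behaved differently. Sec11c (probe set 10802324) was lower with FGF7, BMP4 and FGF2. It measured 7.97, 8.05 and 7.90 with FGF7, against controls of 8.16 to 8.97 (median 8.60), for a mean of 0.646 of the control intensity (log2 change -0.63 ± 0.11, SE, adjusted p = 0.0063). With BMP4 the arrays read 7.99, 7.97 and 8.06 (log2 change -0.60, adjusted p = 0.0101). In both cases all 3 arrays were below every control, with an exact permutation p of 0.00147, the smallest that 3 arrays against 14 can give. With FGF2 the values were 7.91, 8.25 and 7.95 (log2 change -0.56, adjusted p = 0.00399, exact permutation p = 0.00294), and replicate 2 lay inside the control range. Without FGF2 replicate 1 the adjusted p for that factor was 0.113. Without the 4 arrays of low oocyte marker sum, among them that replicate, it was 0.119, with a log2 change of -0.51.

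Sec11c was also under the control mean with the other 5 factors, by 0.43 (KITLG and LIF), 0.38 (PDGF-AB), 0.28 (AMH) and 0.03 (GDNF), none past the threshold. LIF arrays read 8.15, 8.26 and 8.11 (adjusted p = 0.0758) and PDGF-AB arrays 8.16, 8.21 and 8.31 (adjusted p = 0.109), at the lower edge of the controls. GDNF arrays stood at 8.49, 8.64 and 8.60, in the middle of the controls. Sec11a, the alternative catalytic subunit, differed from the controls by -0.09 to 0.18, and Spcs1, an accessory subunit, by -0.33 (GDNF) to 0.13, none past the threshold. GDNF arrays read 9.58, 9.64 and 9.76 for Spcs1, and controls 12, 13 and 14 read 9.74, 9.74 and 9.69. Without these 3 controls the GDNF difference of Spcs1 was -0.41 and passed (adjusted p = 0.0196), in the fit where 11.5% of all probe sets did. The 3 controls read close to GDNF, so leaving them out widens the difference by itself. The calls were thus in 1 of the 3 measured peptidase genes.

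Dad1, a small subunit of the oligosaccharyltransferase, had the widest swing of the whole set and passed with no factor. The values fell into 2 ranges with a gap between them. With BMP4, FGF2, FGF7, KITLG, LIF and PDGF-AB all 18 arrays lay between 11.26 and 11.72. PDGF-AB read 11.55, 11.63 and 11.70, KITLG 11.52, 11.44 and 11.55, LIF 11.47, 11.43 and 11.27, and FGF7 11.45, 11.41 and 11.26. AMH read 11.51, 11.67 and 10.31, and GDNF read 9.94, 9.64 and 10.08. In the controls, replicates 2, 10 and 11 read 11.48, 11.66 and 11.52, and the other 11 lay between 9.63 and 10.64. The log2 change was therefore 0.67 with AMH, between 0.88 and 1.14 with the 6 factors, and -0.60 with GDNF, against a control SD of 0.63, and the lowest adjusted p was 0.068 (FGF2). Both ranges were thus present without any factor. With array quality weights Dad1 passed with BMP4 (adjusted p = 0.00656), FGF7 (0.00611), KITLG (0.0118), LIF (0.0499), PDGF-AB (0.00191) and GDNF (0.0356). It did not pass with AMH under these weights (adjusted p = 0.551). Of all probe sets, 0.878% (LIF) to 20.6% (GDNF) passed in those 6 weighted comparisons.

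The same 3 controls were above the other 11 for Dad1, Ssr4, Ssr2, Sec61b, Sec11a and Spcs1, and below the other 11 for Srp68, Pdia3 and Hsp90b1. For Ssr4 they read 10.01, 10.07 and 10.01, and the other 11 lay between 9.07 and 9.54. The array most like Control 2 over all other probe sets was AMH replicate 1, which shares its high Dad1, and the arrays most like Control 12 and Control 14 were GDNF arrays, which share their low Dad1. AMH replicate 3, low in Dad1 at 10.31, was most like Control 6, at 10.45. Of the 38 arrays, 32 lay in the same Dad1 range as the array most like them and 6 did not. In most of the 32 both arrays were controls or both were treated, so this count cannot tell treatment from other likeness. Among treated arrays most like a control, AMH replicates 1 and 3 and GDNF replicates 1 and 3 shared its range. FGF2 replicate 1, LIF replicates 2 and 3 and KITLG replicate 3 did not. FGF2 replicate 1 (11.33) and Control 1 (10.15) were most like each other and lay in different ranges. LIF replicate 2 (11.43) was most like Control 4 (10.64), LIF replicate 3 (11.27) most like Control 8 (10.19), KITLG replicate 3 (11.55) most like Control 9 (9.95) and FGF7 replicate 3 (11.26) most like AMH replicate 3. Whether these arrays share a culture day or a handling step was not tested.

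**Figure D3:**
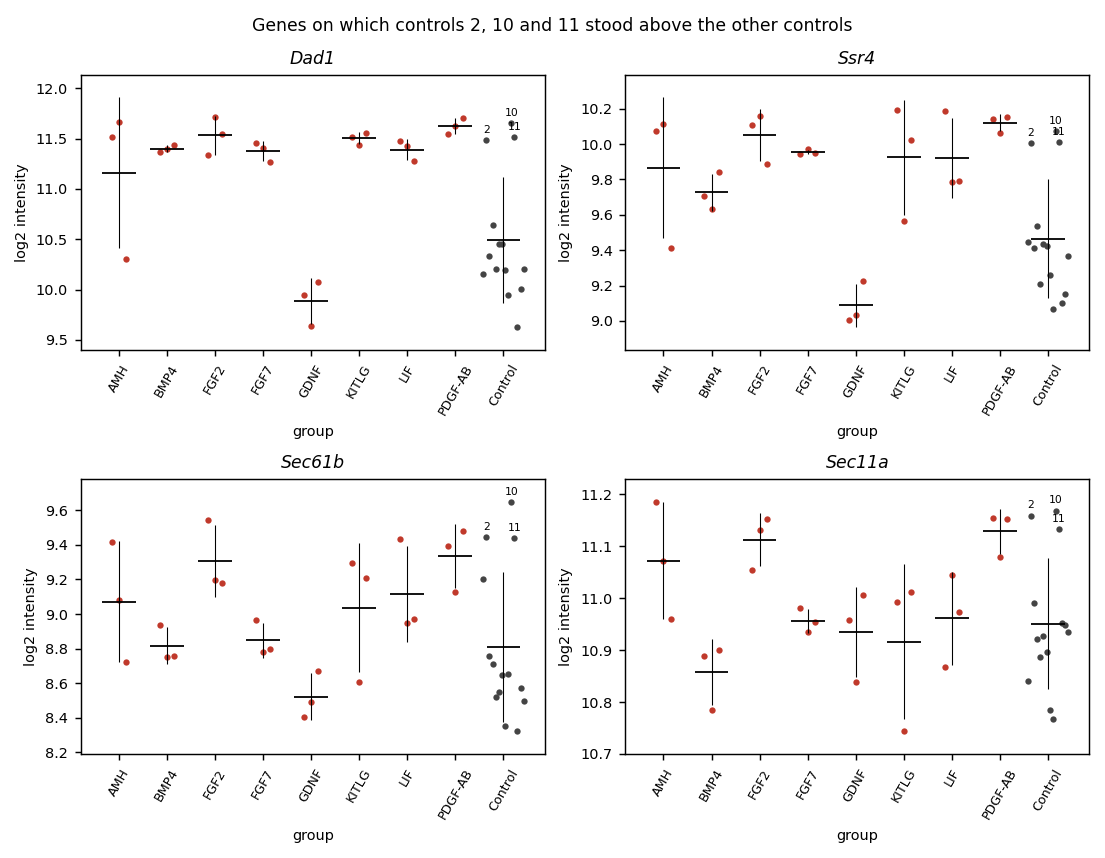
Log2 intensity of Dad1, Ssr4, Sec61b and Sec11a, 1 point per array, with the 8 factors (n = 3 each, red) left of the 14 controls (grey; replicates 2, 10 and 11 are numbered). Bars are means and lines ± 1 SD. For Dad1, 3 controls sit at 11.48 to 11.66 and the other 11 at 9.63 to 10.64.

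Of the other glycosylation genes, Alg3 and Ddost passed the threshold. Alg3 (probe set 10752137), the ER mannosyltransferase that adds the first lumenal mannose to the dolichol-linked glycan, rose with PDGF-AB, BMP4 and FGF2. With PDGF-AB it measured 8.82, 8.82 and 8.61, against controls of 8.07 to 8.62 (median 8.33), 1.35 times the control intensity (log2 change 0.43 ± 0.09, SE, adjusted p = 0.0294, exact permutation p = 0.00294). With BMP4 it read 8.83, 8.67 and 8.72 (log2 change 0.42, adjusted p = 0.0251, exact permutation p = 0.00147). With FGF2 it read 8.82, 8.66 and 8.66 (log2 change 0.39, adjusted p = 0.0228, exact permutation p = 0.00147). The BMP4, FGF2 and KITLG arrays were all above every control, while PDGF-AB replicate 3 lay just under the highest one. Such separation was seen in 0.333% of probe sets with BMP4, 0.699% with FGF2 and 0.307% with KITLG. KITLG values were 8.72, 8.76 and 8.71 (log2 change 0.41, adjusted p = 0.0655), and FGF7 values 8.71, 8.59 and 8.80 (log2 change 0.38, adjusted p = 0.0784). Leaving out the 4 arrays of low oocyte marker sum raised the adjusted p for FGF2 to 0.17, with a log2 change of 0.36.

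Ddost (probe set 10873303), a non-catalytic subunit of the oligosaccharyltransferase, rose with FGF2 at 10.64, 10.42 and 10.64, against controls of 9.93 to 10.42 (median 10.19). The log2 change was 0.37 ± 0.10 (SE, adjusted p = 0.0483, exact permutation p = 0.00147), which is 1.29 times the control intensity, and the lowest FGF2 array exceeded the highest control by less than 0.01. Only 4 of the 14 fits that left out 1 control kept this call, and it was lost without the 4 arrays of low oocyte marker sum (adjusted p = 0.29). Those arrays include FGF2 replicate 1, and the log2 change without them was 0.34. PDGF-AB gave 10.39, 10.58 and 10.73, with a log2 change of the same size, 0.37 (adjusted p = 0.0767). Rpn1, which holds substrate chains near the enzyme, measured 10.23, 10.32 and 10.35 with BMP4, below every control (lowest 10.38), with a log2 change of -0.24 (adjusted p = 0.0814). Rpn2 and the catalytic subunit Stt3a differed by at most 0.05 and 0.14, and Alg5, which makes dolichol-linked glucose, by at most 0.26.

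Among the 8 chaperones and disulphide isomerases, Pdia6 alone passed the threshold. Pdia6 (probe set 10892859), a disulphide isomerase that associates with BiP, was lower with KITLG and BMP4. With KITLG it measured 10.24, 10.27 and 10.45, against controls of 10.41 to 11.04 (median 10.73), for 0.75 of the control intensity (log2 change -0.41 ± 0.08, SE, adjusted p = 0.0429, exact permutation p = 0.00294). With BMP4 it measured 10.24, 10.39 and 10.35, all below every control (log2 change -0.41, adjusted p = 0.0199, exact permutation p = 0.00147). The KITLG call was kept in 7 of the 14 fits without 1 control and was lost without the 4 arrays of low oocyte marker sum (adjusted p = 0.331). Those arrays include KITLG replicate 1, and the log2 change without them was -0.37. GDNF values were 10.90, 10.83 and 10.82, in the upper part of the controls (log2 change 0.11, adjusted p = 0.519).

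The abundant chaperones passed with no factor in the fit of all 38 arrays. Hspa5, which encodes BiP, had log2 changes of -0.05 (BMP4) to 0.15 (PDGF-AB), against a control SD of 0.19. Hsp90b1, which encodes GRP94, ranged between -0.11 (LIF and KITLG) and 0.13 (GDNF), against a control SD of 0.11, and Canx (calnexin) between -0.08 and 0.10. Calr (calreticulin) was under the control mean with all 8 factors, by 0.05 (GDNF) to 0.23 (BMP4), with a lowest adjusted p of 0.272 and an unadjusted p under 0.05 in 2 comparisons. With array quality weights Calr passed with BMP4 (log2 change -0.24, adjusted p = 0.0141) and FGF2 (-0.31, adjusted p = 0.0337). Pdia3, which works with these lectins, differed by at most 0.14, Pdia4 by at most 0.23 and P4hb, the classic disulphide isomerase, by at most 0.20. By array, Hspa5 read 11.55, 11.76 and 11.77 with PDGF-AB, 11.66, 11.65 and 11.72 with FGF7, and 11.65, 11.58 and 11.70 with GDNF, against controls of 11.21 to 11.83 (median 11.57). It read 11.47, 11.68 and 11.54 with AMH, 11.23, 11.64 and 11.60 with BMP4, 11.34, 11.49 and 11.86 with FGF2, 11.32, 11.61 and 11.65 with KITLG, and 11.39, 11.66 and 11.80 with LIF. The first replicates of FGF2, KITLG and LIF, and Control replicate 1 at 11.21, are the 4 arrays with the lowest oocyte marker sums, and all were low in Hspa5, as were BMP4 replicate 1 and Controls 2 and 9 (11.26 and 11.24). The part of cell composition in these values was not tested. Hsp90b1 read 11.78, 11.79 and 11.83 with GDNF, 11.68, 11.77 and 11.73 with PDGF-AB, 11.63, 11.81 and 11.71 with FGF7, and 11.46, 11.74 and 11.66 with BMP4, against controls of 11.44 to 11.81. Its lowest treated values were on first replicates, with 11.33, 11.68 and 11.67 for KITLG, 11.37, 11.64 and 11.67 for LIF, 11.39, 11.58 and 11.80 for FGF2, and 11.48, 11.63 and 11.74 for AMH.

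Calr and Canx encode the lectins that hold glycoproteins while they fold. Calr read 10.91, 11.08 and 11.15 with BMP4, 11.21, 11.12 and 10.88 with FGF2, 10.97, 11.19 and 11.18 with KITLG, and 10.95, 11.22 and 11.19 with AMH, against controls of 10.94 to 11.45 (median 11.32). It read 11.16, 11.13 and 11.20 with FGF7, 11.17, 11.25 and 11.15 with LIF, 11.23, 11.14 and 11.18 with PDGF-AB, and 11.21, 11.20 and 11.29 with GDNF. All treated arrays were thus under the control median of Calr, and every factor overlapped the controls. Canx read 11.89, 11.84 and 11.98 with GDNF, 11.79, 11.90 and 11.82 with FGF7, 11.71, 11.86 and 11.82 with LIF, and 11.70, 11.80 and 11.80 with FGF2, against controls of 11.53 to 11.90. It read 11.68, 11.84 and 11.78 with PDGF-AB, 11.64, 11.88 and 11.76 with KITLG, 11.57, 11.85 and 11.81 with AMH, and 11.57, 11.83 and 11.77 with BMP4. The SE of the change, 0.11 for Hspa5 and 0.08 for Hsp90b1, sets the size of difference that 3 arrays against 14 could show for these genes.

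**Figure D4:**
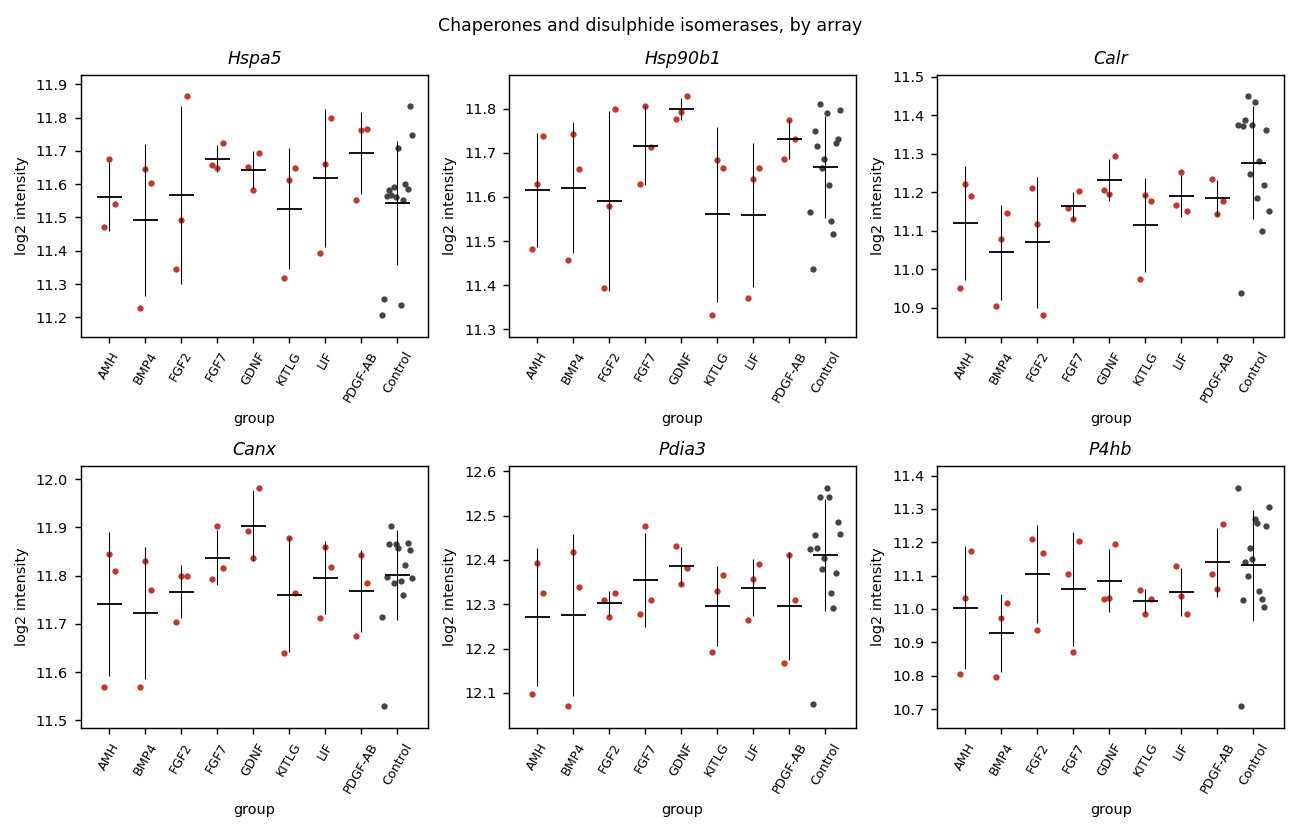
Log2 intensity of 6 chaperone and disulphide isomerase genes, 1 point per array, with the 8 factors (n = 3 each, red) left of the 14 controls (grey). Bars are means and lines ± 1 SD. Treated and control ranges overlap for all 6 genes. Hspa5 spans 11.21 to 11.83 in the controls.

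The promoters of the 4 abundant chaperones are printed because they carry the element through which unfolded protein is known to induce such genes, beside transcript levels that did not pass the threshold. The ER stress element was searched as CCAAT and CCACG with 9 bases of any kind between them, on both strands of RefSeq promoter windows (GRCr8) that run 250 bases before to 50 bases after each start. It was present in 22 of 33469 windows (0.0657%), and in 4 of the 33 member genes that had a window. These were Hspa5, Hsp90b1, Calr and Canx. A second element, ATTGG and CCACG with 1 base between them, was in 0.0508% of windows and in no member, and TGACGTGG was in 0.595% and, among members, in Srp19. The 250 bases before each start follow, 5′ to 3′ on the gene's strand, with the match to the first element in capitals. Hspa5 lies at chr3:38452766-38453015 (plus strand), Hsp90b1 at chr7:23012294-23012543 (minus), Calr at chr19:40213117-40213366 (plus) and Canx at chr10:35157858-35158107 (minus).
Hspa5: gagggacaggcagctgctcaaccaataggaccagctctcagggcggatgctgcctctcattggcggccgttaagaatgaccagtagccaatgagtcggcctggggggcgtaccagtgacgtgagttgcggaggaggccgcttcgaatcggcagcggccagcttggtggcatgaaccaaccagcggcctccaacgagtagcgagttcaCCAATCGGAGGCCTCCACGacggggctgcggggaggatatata
Hsp90b1: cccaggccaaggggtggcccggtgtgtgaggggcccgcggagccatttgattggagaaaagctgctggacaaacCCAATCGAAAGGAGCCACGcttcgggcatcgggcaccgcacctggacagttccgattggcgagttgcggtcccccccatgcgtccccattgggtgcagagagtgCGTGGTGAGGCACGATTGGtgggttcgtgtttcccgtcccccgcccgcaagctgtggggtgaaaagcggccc
Calr: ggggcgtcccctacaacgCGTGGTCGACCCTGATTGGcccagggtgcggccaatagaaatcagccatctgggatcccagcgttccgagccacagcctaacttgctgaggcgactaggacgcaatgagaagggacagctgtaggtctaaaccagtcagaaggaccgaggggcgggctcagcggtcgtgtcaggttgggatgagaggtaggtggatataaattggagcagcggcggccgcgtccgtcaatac
Canx: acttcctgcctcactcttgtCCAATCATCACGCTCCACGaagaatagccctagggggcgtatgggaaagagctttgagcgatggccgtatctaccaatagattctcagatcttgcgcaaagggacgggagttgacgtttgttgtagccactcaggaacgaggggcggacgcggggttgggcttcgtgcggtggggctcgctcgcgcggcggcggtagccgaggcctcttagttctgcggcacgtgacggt
Hsp90b1 held 2 matches and the other windows 1 each. The match began 43 bases before the start in Hspa5, 176 and 72 in Hsp90b1, 232 in Calr and 230 in Canx. A match describes letters in the window and is not evidence of binding.

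Of the 2 ER selenoproteins, Selenok passed the threshold with BMP4. Selenok (probe set 10786417), a membrane protein of ER-associated degradation and palmitoylation, fell with BMP4 to 8.96, 8.48 and 8.66, against controls of 8.98 to 9.85 (median 9.32). All 3 were below every control, and the mean was 0.654 of the control intensity (log2 change -0.61 ± 0.14, SE, adjusted p = 0.0373, exact permutation p = 0.00147). Its other probe set (10918499) gave -0.56 with BMP4 (adjusted p = 0.0251). With FGF7 the arrays read 8.69, 8.76 and 8.62, also below every control, with a log2 change of -0.62 (adjusted p = 0.0535), and the other probe set gave -0.55 (adjusted p = 0.0525). KITLG gave 9.03, 8.47 and 8.89 (log2 change -0.52, adjusted p = 0.141) and AMH 9.25, 8.60 and 9.16 (log2 change -0.31, adjusted p = 0.966), with 1 array or more inside the control range. The remaining 4 factors gave Selenok log2 changes of -0.30 (LIF) to -0.37 (PDGF-AB), none past the threshold. The call with BMP4 was lost without the 4 arrays of low oocyte marker sum (adjusted p = 0.0506), where the log2 change was -0.61. Selenos, which links degradation factors to the membrane, differed by -0.29 (BMP4) to 0.00 (LIF), with a lowest adjusted p of 0.463.

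CTGF was compared with its 3 own controls, whose values were pre-processed apart, and gave the smallest differences. No gene of the set passed (0 of 27342 probe sets did), and none had an unadjusted p under 0.05, against 3.12% of probe sets and 2.42% of the brighter ones. Same-numbered CTGF and control samples deviated together, so the fit was repeated with the number as a block. No gene of the set passed there either (0 of 27342 probe sets), and 1 of 36 (2.78%), Ddost, had an unadjusted p under 0.05, against 10.2% of probe sets. The 36 log2 changes lay between -0.20 and 0.18. Sec11c was lowest, at 9.25, 9.03 and 9.08 with CTGF and 9.43, 9.45 and 9.08 in the controls (log2 change -0.20 ± 0.12, SE, or ± 0.09 with the block, adjusted p = 0.498). Alg5 followed with -0.15, at 9.03, 9.28 and 9.27 with CTGF and 9.25, 9.57 and 9.22 in the controls. The largest positive differences were those of Ddost, at 11.01, 11.04 and 10.91 with CTGF and 10.80, 10.95 and 10.66 in the controls (log2 change 0.18 ± 0.09, SE, or ± 0.07 with the block, adjusted p = 0.458), and Sec61a1, with 0.14. Ddost was higher with CTGF in all 3 pairs, by 0.21, 0.09 and 0.25. All 3 pairs shared 1 sign in 13 of the 36 genes (36.1%), against 30.4% of probe sets. Sec61g was below every control in all 3 CTGF arrays (9.27, 9.17 and 9.27, against 9.41, 9.36 and 9.28), a pattern of 4.54% of probe sets. Dad1 read 11.71, 11.89 and 11.82 with CTGF and 11.81, 12.01 and 11.60 in the controls, a difference of less than 0.01. The central chaperones differed as little: Hspa5 read 12.51, 12.28 and 12.26 with CTGF and 12.35, 12.31 and 12.21 in the controls, and Hsp90b1 12.34, 12.35 and 12.33 with CTGF and 12.19, 12.30 and 12.36 in the controls. Calr read 11.66, 11.67 and 11.58 with CTGF and 11.58, 11.72 and 11.60 in the controls, and Canx 12.31, 12.32 and 12.31 with CTGF and 12.24, 12.32 and 12.33 in the controls. Sec61a1 read 11.32, 10.94 and 10.88 with CTGF and 11.04, 10.93 and 10.74 in the controls, and Sec61b 10.20, 10.10 and 10.11 with CTGF and 10.24, 10.38 and 10.01 in the controls. With 3 arrays against 3, an exact permutation test cannot go below 0.1, and one within the 3 pairs not below 0.25.

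**Figure D5:**
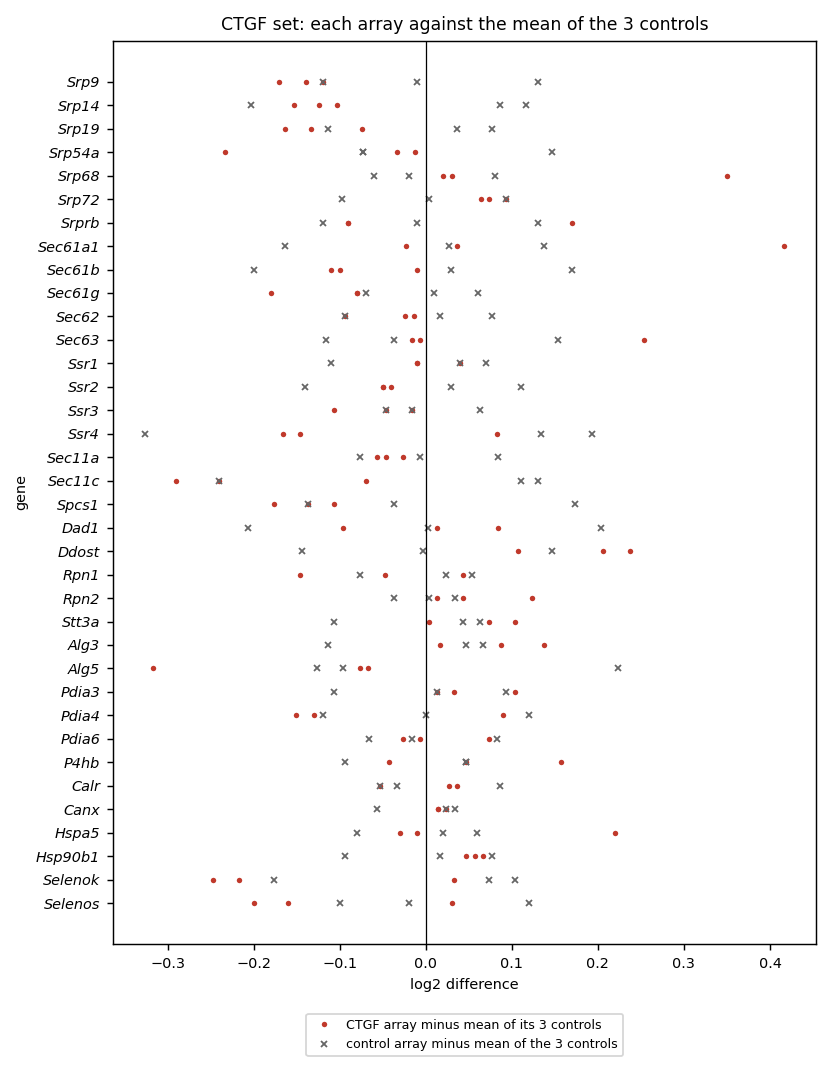
Each of the 3 CTGF arrays (red points) and of their 3 controls (grey crosses) minus the mean of the 3 controls, in log2 units, for the 36 genes. Treated and control arrays overlap for all genes but Sec61g.

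Direct contrasts between the 8 factors do not use the controls' level, though they share the spread. Over the 28 pairs of factors, 28 gene calls were made, adjusted over all probe sets within each pair. All were in the 7 pairs that involved GDNF, and 0 in the other 21. Srp9 passed in all 7, with a log2 difference from GDNF of -0.94 (AMH) to -1.24 (BMP4), where GDNF averaged 8.72. Dad1 passed against GDNF in 6, by 1.49 (FGF7) to 1.74 (PDGF-AB), where GDNF averaged 9.89. Ssr4 passed in 5, Srp54a in 4, and Sec11c and Pdia6 in 3 each. Against GDNF, AMH had 1 gene of the set (0.753% of all probe sets), BMP4 5 (2.4%), FGF2 5 (3.13%), FGF7 5 (1.55%), KITLG 5 (2.5%), LIF 4 (3.79%) and PDGF-AB 3 (2.53%), while at most 0.187% of all probe sets passed in any other pair. Without GDNF replicate 1, 2 or 3 the total of 28 became 4, 6 and 16, and without the 4 arrays of low oocyte marker sum it was 13. The study's text names fewer GDNF samples than the labels do, and which array it leaves out is not given in the sources used here. The likeness of GDNF arrays to Control 12 and Control 14 stands beside these contrasts, and its part in them was not tested.

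Few other genes of the same route passed. From lists of further translocation, N-glycosylation, folding, unfolded protein response, ER-associated degradation and export genes, 110 of 133 genes were measured. With FGF2, 1 of 110 rose (0.909%, against 0.94% of all probe sets): Plod1, a lysyl hydroxylase of collagen, with a log2 change of 0.70 (adjusted p = 0.0219). With GDNF, 1 of 110 fell (0.909%, against 1.89%): Ppib, an ER prolyl isomerase, by 0.36 (adjusted p = 0.0211). With PDGF-AB, 1 of 110 rose (0.909%, against 0.234%): Kdelr2, a receptor that returns ER proteins from the Golgi, with 0.49 (adjusted p = 0.0324). None passed with the other 6 factors. None of the genes of the unfolded protein response list (18 measured of 19) passed with any factor.

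Markers of ovarian cell types were set beside these changes. Of 39 marker genes measured, Pdgfrb of the mesenchyme list rose with FGF2 (log2 change 0.59, adjusted p = 0.0427) and Wnt4 of the pregranulosa list rose with LIF (0.79, adjusted p = 0.0156). The summed level of 6 mesenchyme markers was 14774, 12067 and 11782 with FGF2 and 16088, 13100 and 13052 with PDGF-AB. The controls lay between 9775 and 13159 (median 12105), so that only replicate 1 of each factor was above them. With FGF2 the oocyte sums were 2217, 8538 and 6445, and 0 of 7 oocyte markers had a mean above the controls (median log2 change -0.36, none past the threshold). With BMP4 the mesenchyme sum was 11926 to 13084, and the oocyte sum 6431 to 7089, inside the control range of both lists. Other lists leaned to 1 side with BMP4. 0 of 5 surface epithelium markers (median log2 change -0.24) and 0 of 3 smooth muscle markers (-0.16) had a mean above the controls. By contrast, 4 of 5 pregranulosa (0.12) and 4 of 5 macrophage markers (0.14) did. With KITLG 4 of 4 mast cell markers were above (0.62), and none of these passed. The part of cell composition in the changes with FGF2, PDGF-AB, BMP4 and KITLG was not tested.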

How the data were processed

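RNA of 44 samples was hybridised to Affymetrix Rat Gene 1.0 ST arrays, 1 sample per array. The deposited log2 values of 27342 probe sets were made by the authors with RMA, adjusted for GC content, in Partek software, and the CTGF set was pre-processed apart from the other 38 arrays. Aligner and genome build do not apply, and gene names came from the platform annotation, which gave 15097 probe sets 1 symbol, 323 several and 11922 none. All 36 symbols were matched to RefSeq by gene number.

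A linear model was fitted with limma 3.58.1 in R 4.3.3 (lmFit, eBayes) to the 38 arrays of 8 factors and 14 controls, and another to the 6 of the CTGF set, with Benjamini-Hochberg adjustment over all probe sets at 0.05. Exact two-sided permutation tests ran over 680 splits (3 against 14) or 20 (3 against 3). The scripts were tested on simulated data. Python 3.11.15 with scipy 1.17.1, numpy 2.4.6 and pandas 2.3.3 was used for the rest. Genes described with every treated array are those past the threshold, in comparisons with fewer than 3 of these the 2 largest rises and 2 largest falls, and Hspa5, Hsp90b1, Calr, Canx, Sec61a1 and Sec61b. From the other lists only genes past the threshold are named. The members and all lists were chosen with earlier results of these data known, among them the falls of Srp9 and Sec11c and the rise of Alg3 with BMP4. In the CTGF set same-numbered samples deviated together (r = 0.842, 0.623 and 0.647), so that the numbers pair them, and the block is given beside that comparison. In the other set same-numbered samples deviated together mainly for replicate 1 of FGF2, LIF and KITLG with Control 1 (r = 0.740, 0.694 and 0.615). Alternatives were other normalizations, filters, probe set choices, variance models, array weights, a replicate block, the methods' t-test, controls left out and each array left out in turn. The study's text names 2 GDNF replicates and the labels give 3 GDNF samples, and all 3 were used.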

Additional observations from a re-analysis of the deposited data

Results flagged for a closer look

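These results were marked because the effects of 2 factors under the same controls differed in a limma test of the difference itself. There were 28 over the 28 pairs of factors, all of them another factor minus GDNF. For Dad1 the difference from GDNF was 1.51 (BMP4), 1.65 (FGF2), 1.49 (FGF7), 1.62 (KITLG), 1.50 (LIF) and 1.74 (PDGF-AB) on the log2 scale, with adjusted p between 0.011 and 0.0325. For Pdia6 the difference from GDNF was -0.52 (BMP4), -0.37 (FGF2) and -0.53 (KITLG) on the log2 scale, with adjusted p between 0.0114 and 0.0497. For Sec11c the difference from GDNF was -0.57 (BMP4), -0.54 (FGF2) and -0.60 (FGF7) on the log2 scale, with adjusted p between 0.0232 and 0.0264. For Srp54a the difference from GDNF was -0.46 (BMP4), -0.43 (FGF7), -0.51 (KITLG) and -0.39 (LIF) on the log2 scale, with adjusted p between 0.0152 and 0.0479. For Srp9 the difference from GDNF was -0.94 (AMH), -1.24 (BMP4), -0.94 (FGF2), -1.20 (FGF7), -1.05 (KITLG), -0.98 (LIF) and -1.02 (PDGF-AB) on the log2 scale, with adjusted p between 0.00782 and 0.0429. For Ssr4 the difference from GDNF was 0.96 (FGF2), 0.87 (FGF7), 0.84 (KITLG), 0.83 (LIF) and 1.03 (PDGF-AB) on the log2 scale, with adjusted p between 0.011 and 0.0357. Each value is a mean of 3 arrays minus the mean of 3 GDNF arrays, with p-values adjusted over 27342 probe sets within each pair and not over the 28 pairs. In the 6 genes GDNF lay on the other side of the controls from the other factor, except Sec11c, where GDNF was 0.03 under the control mean. GDNF replicates 1 and 3 were most like Control 12 and Control 14 over all other probe sets, which stands beside these values, and its part in them was not tested. No group had 4 to 10 samples, so that no single array could be tested as standing apart.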

How the results depend on the processing

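The counts of called genes depended on the fit. With the treated arrays and controls alone, and with the methods' t-test after adjustment on log2 or linear values, the counts for BMP4, FGF2, FGF7, KITLG and PDGF-AB were 0, where at most 0.128% of all probe sets passed. With array quality weights they were 10 for BMP4 (4.57% of all probe sets passed), 4 for FGF2 (1.24%), 9 for FGF7 (4.24%), 7 for GDNF (20.6%), 7 for KITLG (1.99%), 2 for LIF (0.878%), 10 for PDGF-AB (4.13%) and 66 over the direct contrasts (3.69% of all tests, against 0.621% without weights). With the replicate number as a block they were 1 for BMP4 (0.0768%), 1 for FGF2 (0.457%), 3 for FGF7 (0.958%), 3 for GDNF (6.31%), 0 for KITLG (0%) and 55 over the direct contrasts (1.88%). In this set only controls 1, 2 and 3 share a number with treated arrays. Each other control formed a block of its own and did not enter the block's differences, here or in the sign changes below. In the first set the deviations of same-numbered samples from their group means correlated between -0.56 and 0.74. Control 1 was the control most like replicate 1 of FGF2, LIF and KITLG in this (r = 0.740, 0.694 and 0.615). No other treated array of that set was most like its same-numbered control. The block changed no call for CTGF. Centring on the mean of brighter probe sets gave 2 for FGF7 (0.154%), 0 for KITLG (0.0366%), 1 for LIF (0.256%) and 0 for PDGF-AB (0.121%), and repeated quantile normalization gave 3 for FGF7 (0.146%), 0 for KITLG (0.0549%), 1 for LIF (0.322%) and 0 for PDGF-AB (0.249%). The mean of all probe sets of a gene gave 2 for FGF7 (0.0828%), probe sets of a single symbol gave 2 for FGF7 (0.185%) and 2 for PDGF-AB (0.59%), and a trended robust variance gave 0 for KITLG (0.0256%). Without controls 12, 13 and 14 there were 4 for GDNF (11.5%), 0 for KITLG (0.0219%) and 2 for PDGF-AB (0.347%). Without the 4 arrays of low oocyte marker sum, an alternative chosen after seeing the data, there were 3 for BMP4 (0.289%), 0 for FGF2 (0.0805%), 0 for KITLG (0%) and 13 over the direct contrasts (0.349%). This alternative leaves FGF2, KITLG and LIF with 2 arrays each. Leaving out 1 array at a time gave 0 to 6 for BMP4, 0 to 5 for FGF2, 0 to 3 for FGF7, 0 to 1 for GDNF, 0 to 2 for KITLG, 0 to 1 for LIF, 0 to 4 for PDGF-AB and 4 to 33 over the direct contrasts. The causes were not tested. Among single genes, 2460 comparisons of a setting with the reported value kept direction and side of the threshold, 107 lost the call, 43 gained one and 85 changed sign. Only the 11 called pairs could lose a call, each compared with 14 other settings and 17 fits without 1 array. All 107 losses were among these, while the 2460 are mostly pairs not called in the reported fit. None of the sign changes was in a called result, and the lowest adjusted p after one was 0.417. The values that changed sign are log2 changes of at most 0.32 in size. With array quality weights they were Calr with CTGF -0.012, Canx with FGF7 -0.0037, Hsp90b1 with FGF7 -0.0024, Hspa5 with KITLG 0.0015. With centring on the array median they were Calr with CTGF -0.0104, Canx with LIF 0.0022, Hspa5 with AMH -0.0018, Sec61b with BMP4 -0.0021. With centring on the mean of brighter probe sets they were Calr with CTGF -0.013, Calr with GDNF 0.0012, Sec61b with BMP4 -0.0038. With controls 12, 13 and 14 left out they were Canx with LIF 0.0062, Hspa5 with KITLG 0.033, Sec61b with BMP4 -0.087, Sec61b with FGF7 -0.055. With repeated quantile normalization they were Calr with CTGF -0.0046, Hspa5 with AMH -0.0041, Hspa5 with KITLG 0.0067. With the replicate block they were Calr with GDNF 0.0028, Canx with AMH 0.061, Canx with BMP4 0.043, Canx with FGF2 0.086, Canx with KITLG 0.0803, Canx with LIF 0.12, Canx with PDGF-AB 0.087, Hsp90b1 with AMH 0.032, Hsp90b1 with BMP4 0.037, Hsp90b1 with FGF2 0.0076, Hspa5 with BMP4 0.15, Hspa5 with KITLG 0.18, Sec61b with AMH -0.062, Sec61b with BMP4 -0.32, Sec61b with FGF7 -0.29, Sec61b with KITLG -0.098, Sec61b with LIF -0.017. With the 4 arrays of low oocyte marker sum left out they were Canx with KITLG 0.014, Canx with LIF 0.031, Hsp90b1 with FGF2 0.014, Hspa5 with AMH -0.0051, Hspa5 with KITLG 0.063. With the methods' t-test on linear values they were Sec61b with BMP4 -0.056, Sec61b with FGF7 -0.024. Leaving out 1 array also turned the sign of small changes. For Calr the lowest and highest values were -0.0235 and 0.0463 with CTGF. For Canx the lowest and highest values were -0.111 and 0.027 with AMH, -0.131 and 4.29e-05 with BMP4, -0.0114 and 0.0338 with CTGF, -0.0978 and 0.0208 with KITLG, -0.0357 and 0.0378 with LIF and -0.0706 and 0.0131 with PDGF-AB. For Hsp90b1 the lowest and highest values were -0.113 and 0.015 with AMH, -0.108 and 0.035 with BMP4, -0.181 and 0.0222 with FGF2 and -0.169 and 0.00711 with KITLG. For Hspa5 the lowest and highest values were -0.0357 and 0.0657 with AMH, -0.127 and 0.0809 with BMP4, -0.0202 and 0.105 with CTGF, -0.123 and 0.136 with FGF2, -0.0765 and 0.0883 with KITLG and -0.0156 and 0.188 with LIF. For Sec61a1 the lowest and highest values were -0.0652 and 0.161 with AMH. For Sec61b the lowest and highest values were -0.0543 and 0.0721 with BMP4, -0.173 and 0.0117 with CTGF and -0.0202 and 0.104 with FGF7. The number of arrays limits precision, and signal was well over the median probe set for all 36 genes.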
